A study of Mus musculus with 12 samples.

Results

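The subject is the mouse genes for pre-mRNA splicing factors, taken as every array probe whose gene name, or the current symbol of its accession, begins with Hnrnp, Hnrp, Srsf, Sfrs, Snrp, Sf3a, Sf3b, U2af or Prpf. That rule found 163 of the 41174 probes on the array, which stand for 78 of 27665 genes. Of the 163 probes, 156 carried such a name in the files and 7 were found through the current symbol only. Hnrnpul2 did not pass the filter on dim probes, so 77 of the 78 genes were tested, and all 77 were well above background on all 12 arrays.

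The samples were uteri of adult female mice (10+ weeks, C57bl6/Jx129 background), all ovariectomized and rested for 10 to 14 days, with 1 mouse per array and 3 mice in each of 4 groups. WT mice carried the normal Esr1 gene, which encodes the estrogen receptor ERα, and EAAE mice carried an ERα that the study's title describes as deficient in DNA binding. Each genotype received 100 µl of saline or of estradiol (E2) by injection, and uteri were collected 2 h later. The dose of E2 and the way the EAAE allele was made are not given in the sources used here. Labelled RNA of the whole uterus was hybridised to 1-colour 60-base Agilent arrays. Levels are given here as log2 intensity relative to the 75th percentile of the same array, so a difference of 1 is a 2-fold difference. Because whole uterus was used, more RNA per cell and more cells of a type cannot be told apart.

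Splicing removes introns from pre-mRNA. The spliceosome is built from small nuclear ribonucleoprotein particles (snRNPs), whose common core is the ring of Sm proteins encoded by Snrp genes. U2AF recognises the 3′ splice site, SF3A and SF3B anchor the U2 snRNP at the branch point, and PRPF proteins serve mainly in the U4/U6.U5 tri-snRNP and in later remodelling. SR proteins (Srsf genes) mostly promote the use of exons by binding exonic enhancers, whereas hnRNP proteins coat nascent RNA and often repress exons. In the ovariectomized uterus, E2 acts through ERα to start an early wave of transcription that precedes growth.

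The arrays had 64.0% to 74.0% of spots well above background, and 75th-percentile intensities of 1401 to 1944. The labels were checked on 2 early E2 targets and the receptor. Fos rose in WT by 5.44 (SE 0.36, limma adjusted p = 1.5e-06), against a change of 0.41 in EAAE that did not pass the test (adjusted p = 0.61). Greb1 rose in WT by 3.78 (SE 0.44, limma adjusted p = 6.2e-05) and under saline was 5.09 lower in EAAE than in WT. On the saline arrays, Esr1 itself was 0.41 above WT in EAAE mice (limma adjusted p = 0.0093). After E2 in EAAE, Greb1 and Esr1 also did not pass the test (limma adjusted p = 0.47 and 0.27). This check therefore cannot tell which EAAE mice received E2. The arrays were on 3 slides, each holding several groups, and all EAAE E2 arrays lay at the same position of their slide. The groups were not balanced over slides: WT saline arrays were on slides 1, 3 and 3 and EAAE saline arrays on slides 2, 1 and 2. Slide 1 alone therefore held both saline groups, and genotype under saline is largely mixed with slide.

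The sequences below show what the arrays read in 4 of the transcripts, in probes of Srsf2, Srsf5, U2af1 and Snrpd3 that have at least 1 reading frame without a stop codon. None of the 4 is the brightest probe of its gene, and the gene values that follow come from the brightest probe, so these probes' own values are given where they are named. They are written in lower case as the files give them, and coordinates are those of the files (mm7).
Srsf2, chr11:116961088-116961147: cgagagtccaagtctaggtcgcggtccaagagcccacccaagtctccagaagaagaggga
Srsf5, chr12:78909505-78910154: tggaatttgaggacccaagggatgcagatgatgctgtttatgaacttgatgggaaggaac
U2af1, chr17:29845934-29849579: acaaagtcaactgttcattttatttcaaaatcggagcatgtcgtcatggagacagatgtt
Snrpd3, chr10:75187945-75188004: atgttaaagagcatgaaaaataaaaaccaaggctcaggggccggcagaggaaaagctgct
The Srsf5 and U2af1 probes are 60 bases long but cover intervals of 650 and 3646 bases, so each reads across at least 1 splice junction. Of the 163 probes, 24 cover an interval longer than the probe.

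In WT uterus most splicing factor genes were higher 2 h after E2 than after saline. Of the 77 tested, 42 rose, 1 fell and 34 did not pass the test (limma over all 12 arrays, Benjamini-Hochberg adjusted over 19300 genes, threshold 0.05). Among all tested genes, 19.6% rose and 29.7% fell. The median change of the 77 was 0.34, against -0.15 for all tested genes, and the fitted changes ran from -0.28 to 1.34. The rises were mostly moderate: 4 of the 42 reached 2-fold, 20 were under 0.5 on the log2 scale, and the median of the 42 was 0.52. All 3 E2 arrays lay above all 3 saline arrays in 53 of the 77 genes, called or not, and in 24.8% of all tested genes. The reverse order held in 5 of the 77, against 7652 of all 19300 tested genes. Some of the rises depended on the settings: of 22 alternatives, Sf3b1 was called under 4, Hnrnpc under 11, U2af2 under 12, Prpf38b under 13, Hnrnpll under 14 and Hnrnpa0 under 15. With array medians as the scaling, the median change of all genes was -0.01 in place of -0.15, 23.4% of all genes rose and 20.4% fell, and 46 members rose with a median of 0.48. With quantile scaling 36 members rose and 4 fell with a median of 0.275, against 19.4% and 29.2% of all tested genes. The difference between the median member and the median gene was 2.80 to 2.82 on the WT saline arrays and 3.31 to 3.45 on the WT E2 arrays. A constant shift of a whole array does not alter that difference, but a shift that depends on intensity can. The median member was brighter than the median gene, and the comparison with all genes was not matched for brightness.

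**Figure D1:**
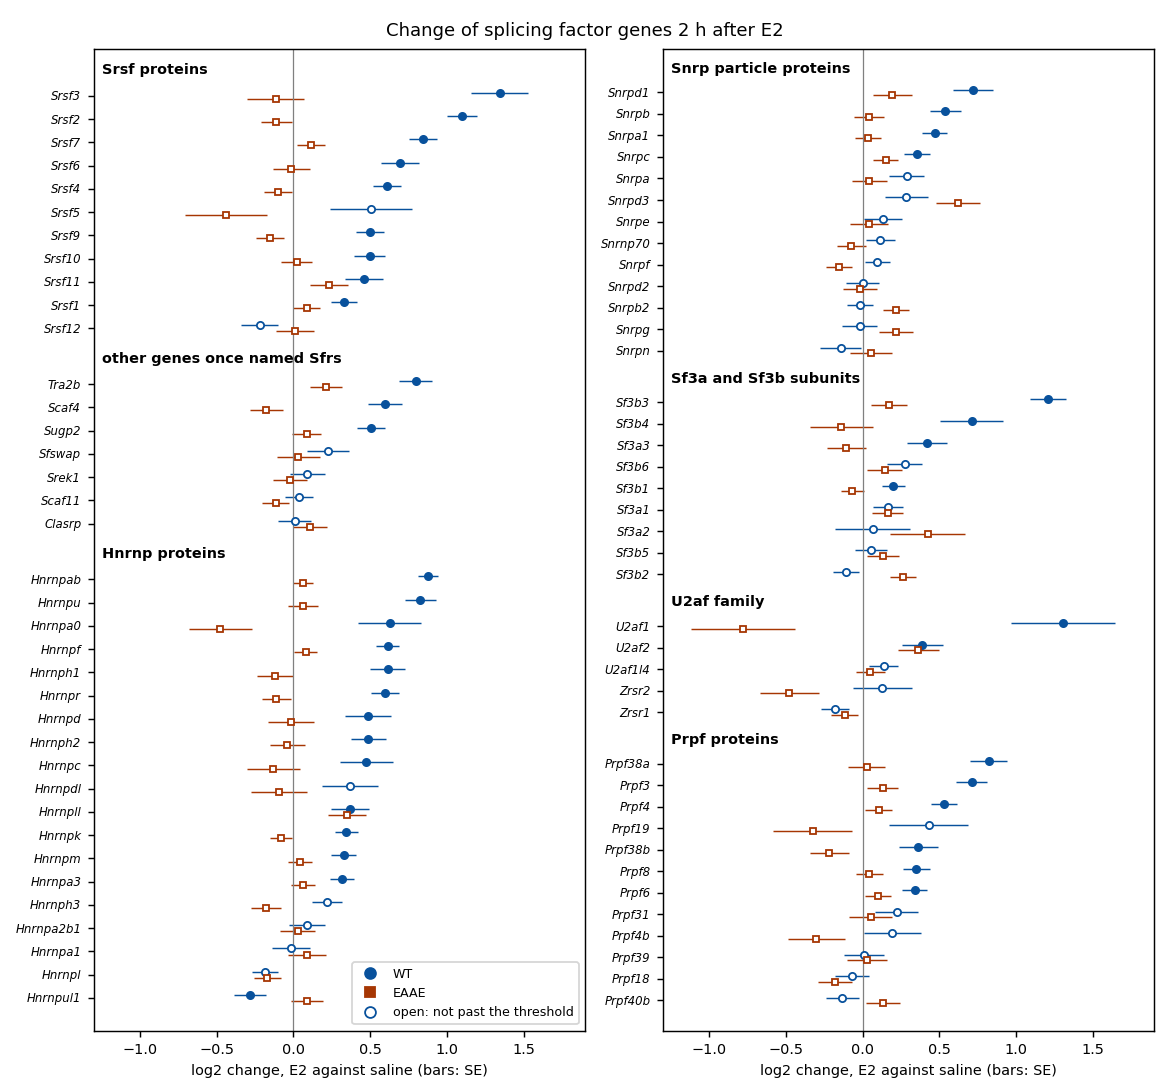
Log2 change 2 h after E2 against saline in WT (blue circles) and EAAE (orange squares) for the genes shown, by family, with fitted standard errors as bars and filled symbols for adjusted p under 0.05. In WT the filled symbols lie above zero except that of Hnrnpul1, and no EAAE symbol is filled.

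Of the 11 SR protein genes named Srsf, 9 rose in WT, with a family median of 0.51. Srsf3, the smallest SR protein and also an adaptor for mRNA export, had levels of -0.08, 0.02 and -0.20 on the WT saline arrays and 1.18, 1.24 and 1.35 after E2. Its rise of 1.34 (SE 0.19, limma adjusted p = 0.00019) was the largest of any member, at 2.54-fold. Srsf2, the SR protein SC35, stood at 2.88, 2.97 and 2.72 under saline and at 3.83, 4.05 and 3.98 after E2, a rise of 1.10 (SE 0.10, limma adjusted p = 1.2e-05). In both genes the lowest E2 array was far above the highest saline array, and the 2 sets of arrays did not overlap.
Srsf7, a close relative of Srsf3, had 2.68, 2.83 and 2.77 under saline and 3.54, 3.71 and 3.56 after E2, a rise of 0.84 (SE 0.09, limma adjusted p = 3.2e-05). Srsf6, Srsf4, Srsf9, Srsf10, Srsf11 and Srsf1 rose by 0.69 to 0.33 in that order. Srsf5 changed by 0.51 and Srsf12 by -0.22, and neither passed the test.

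Of the 7 other genes that once bore Sfrs names, 3 rose. Tra2b, which binds GAA-rich exonic enhancers, went from 2.21, 2.29 and 2.44 to 2.95, 3.18 and 3.19, a rise of 0.80 (SE 0.11, limma adjusted p = 0.00014). Scaf4 rose by 0.60 and Sugp2 by 0.51. Srek1, Scaf11, Clasrp and Sfswap had changes of 0.01 to 0.23 that did not pass the test. Clasrp, a regulator that binds CLK-type kinases, had the smallest change of the SR-type genes, with levels of 4.33, 4.49 and 4.67 under saline and 4.48, 4.56 and 4.48 after E2, so its groups overlapped.

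Among the 19 tested hnRNP genes, 13 rose and 1 fell. Hnrnpab, an RNA-binding protein of the A/B type, had the largest change of the family: its levels were 6.13, 6.18 and 6.15 under saline and 7.001, 7.09 and 6.996 after E2, a rise of 0.88 (SE 0.07, limma adjusted p = 3.4e-06). Hnrnpu, a scaffold-attachment protein of the nuclear matrix, was at 3.88, 3.86 and 4.06 and moved to 4.75, 4.87 and 4.66, a rise of 0.83 (SE 0.10, limma adjusted p = 7.6e-05). Replicates of both genes lay close together within a group, and the E2 arrays did not overlap the saline arrays. The other tested probe of Hnrnpu changed by 0.17 and did not pass. Hnrnpa0, Hnrnpf, Hnrnph1, Hnrnpr, Hnrnpd, Hnrnph2, Hnrnpc, Hnrnpll, Hnrnpk, Hnrnpm and Hnrnpa3 rose by 0.63 to 0.32. Hnrnpul1 was the member that fell, from 2.44, 2.50 and 2.77 to 2.28, 2.32 and 2.26, a change of -0.28 (SE 0.10, limma adjusted p = 0.046). That call was lost under 15 of 22 alternative settings. Hnrnpa1, a repressor of many exons, had 3.99, 4.07 and 4.18 under saline and 4.09, 4.04 and 4.06 after E2, and its change of -0.02 was the smallest of the family. Its near-identical gene copies make its signal uncertain.

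Of the 13 snRNP protein genes, 4 rose, with a family median of 0.13. Snrpb, which encodes the Sm proteins B and B′, rose by 0.54, Snrpa1 of the U2 snRNP by 0.47 and Snrpc of the U1 snRNP by 0.35. Snrpd1, for the Sm protein D1, had the largest change, from 1.70, 1.495 and 1.48 to 2.11, 2.30 and 2.41, a rise of 0.72 (SE 0.13, limma adjusted p = 0.0010). Snrpd2, for the partner protein D2, had the smallest, with 2.43, 2.38 and 2.47 under saline and 2.34, 2.39 and 2.55 after E2. The arrays of Snrpd1 did not overlap between groups, whereas those of Snrpd2 did. Snrnp70, the U1 snRNP protein, changed by 0.11 and did not pass the test.

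In the branch-point complexes, 4 of 9 SF3A and SF3B genes rose. Sf3b3, a large scaffold subunit of SF3B, was at 1.83, 2.02 and 2.21 under saline and at 3.24, 3.20 and 3.24 after E2, a rise of 1.21 (SE 0.12, limma adjusted p = 1.8e-05). Sf3b4 rose by 0.71, Sf3a3 by 0.42 and Sf3b1, which contacts the branch point, by 0.20, a call kept under 4 of 22 alternatives. Sf3b5 had the smallest change, 0.06, with 2.46, 2.30 and 2.59 under saline and 2.52, 2.50 and 2.50 after E2, so its groups overlapped.

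In the U2AF family 2 of 5 genes rose. U2af1, the small U2AF subunit that reads the AG of the 3′ splice site, had saline levels of 3.18, 3.22 and 2.02 and E2 levels of 4.10, 4.19 and 4.05, a rise of 1.31 (SE 0.34, limma adjusted p = 0.0089). The E2 arrays agreed closely and lay above all saline arrays, but 1 saline array was more than 1 lower than the others, which widened the error. The dimmer U2af1 probe printed above rose by 1.22 (SE 0.285, limma adjusted p = 0.0050) when each probe was tested on its own. U2af2, the large subunit that binds the polypyrimidine tract, rose by 0.39 (SE 0.13, limma adjusted p = 0.032). Zrsr2, which serves the minor spliceosome, had -0.11, 0.12 and -0.54 under saline and -0.05, -0.04 and -0.06 after E2, the smallest change of the family.

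Of the 13 PRPF genes, 7 rose. Prpf38a, a factor needed for activation of the spliceosome, went from 2.10, 2.18 and 1.96 to 2.80, 2.88 and 3.03, a rise of 0.82 (SE 0.12, limma adjusted p = 0.00029), and its groups did not overlap. Prpf3 and Prpf4, partners in the U4/U6 snRNP, rose by 0.71 and 0.53. Prpf38b, Prpf8 and Prpf6 rose by 0.36 to 0.34. Prpf39, of the U1 snRNP, had the smallest change at 0.01, with overlapping levels of 1.56, 1.79 and 1.75 under saline and 1.58, 1.85 and 1.71 after E2.

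**Figure D2:**
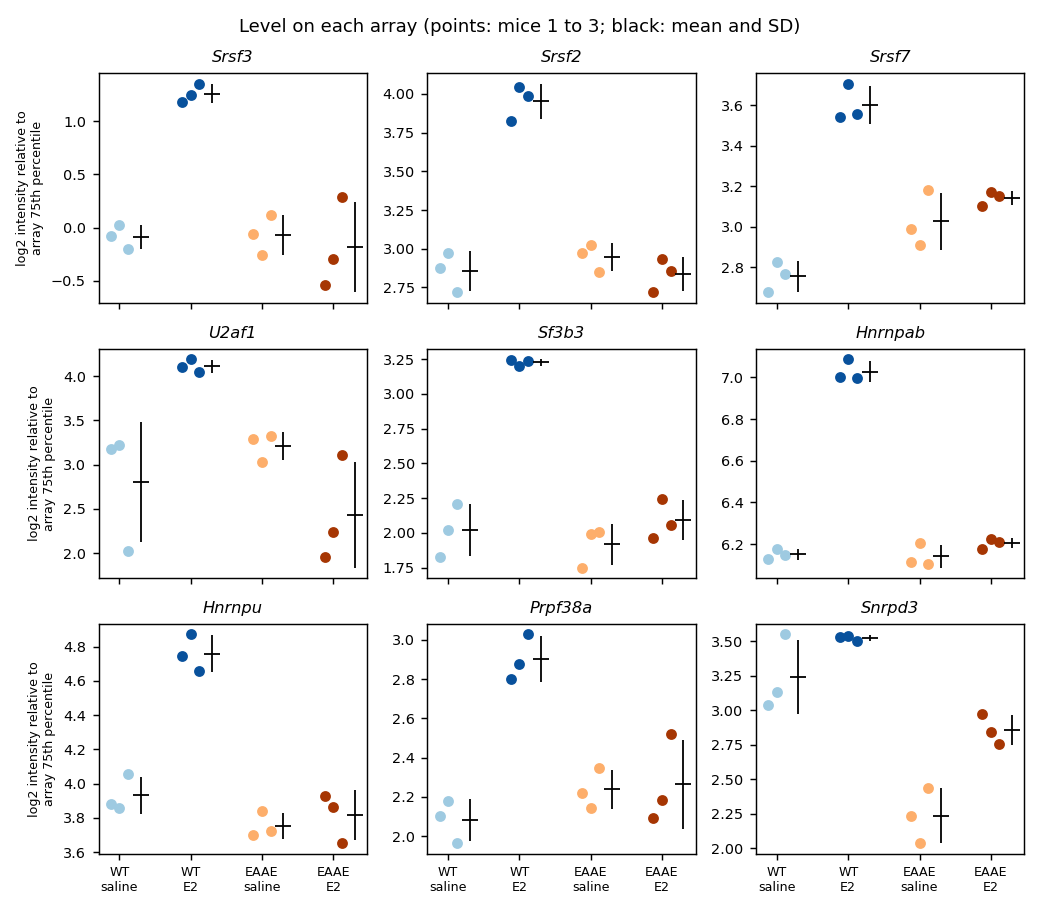
Level of 9 genes on each array as log2 intensity relative to the array's 75th percentile, with 3 mice per group as points and the mean and SD in black. WT E2 arrays lie above all other groups for 8 of the genes, whereas Snrpd3 is set apart by its low EAAE saline arrays of 2.04 to 2.44.

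Markers of other cell types moved with this comparison. All 8 adipocyte markers fell in WT after E2 (median -3.36), as did 7 of 8 stromal markers (median -1.13) and 5 of 8 endothelial markers (median -0.34), whereas none of the 8 smooth muscle markers, 8 lymphocyte markers or 3 tested erythroid markers passed the test. Macrophage markers fell in 2 of 8 cases, and of 8 epithelial markers 1 rose and 2 fell. The summed intensity of the adipocyte markers, on a linear scale relative to each array's 75th percentile, ran from 25.0 to 189.1 on WT saline arrays and from 2.49 to 24.7 on WT E2 arrays. No marker list was at background throughout, and the part of these shifts in the splicing factor result was not tested. Within the slides that held both groups, the members' median change was 0.33 on slide 1 and 0.41 on slide 3. With slide as a block and position as a linear term, 21 members rose, against 13.3% of all tested genes.

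No splicing factor gene passed the test in EAAE uterus after E2 (0 of 77 with limma, against 1.45% of all tested genes). An unadjusted limma p under 0.05 was found for 8 of 77 members and for 3080 of all 19300 tested genes. The median change was 0.03, against 0.02 for all genes. Srsf3 had EAAE levels of -0.06, -0.26 and 0.12 under saline and -0.54, -0.29 and 0.29 after E2, which overlap. Sf3b3 had 1.75, 2.00 and 2.01 against 1.97, 2.25 and 2.06, a change of 0.17 (limma adjusted p = 0.50). Among the 42 genes that rose in WT, the EAAE changes ran from -0.78 for U2af1 to 0.36 for U2af2. U2af1 had EAAE levels of 3.29, 3.03 and 3.33 under saline and 1.95, 2.24 and 3.11 after E2, and its adjusted p was 0.29 with limma. The member nearest to a call was Snrpd3, for the Sm protein D3, with 2.23, 2.04 and 2.44 under saline and 2.97, 2.85 and 2.75 after E2, a change of 0.62 (SE 0.14, limma adjusted p = 0.062). Its probe printed above passed when each probe was tested on its own, at 0.79 (limma adjusted p = 0.022; 1 of 156 member probes, against 1.44% of all tested probes), whereas a further Snrpd3 probe changed by -0.08.

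The difference between the responses was tested directly. Of the 77 genes, 30 had a lower response in EAAE than in WT and 1 a higher one, against 15.1% and 22.2% of all tested genes. Of the 42 genes that rose in WT, 29 had a lower response in EAAE (69.0%), and the share among all 3783 genes that rose in WT was 71.2%. The WT arrays enter both comparisons. Among cell type markers, 6 of 8 stromal, 5 of 8 endothelial and 2 of 8 macrophage markers had a higher response in EAAE. All 8 adipocyte markers had differences above zero (median 3.20), of which 1 passed. Of 8 epithelial markers 1 was higher and 1 lower, and 1 of 8 smooth muscle markers was lower. The part of these marker shifts in the member differences was not tested. Largest was U2af1, whose response was 2.09 lower in EAAE (SE 0.48, limma adjusted p = 0.0070). Next came Srsf3 with a difference of -1.46 (SE 0.26, limma adjusted p = 0.0018), Srsf2 with -1.21 (SE 0.14, limma adjusted p = 0.00014) and Hnrnpa0 with -1.11 (SE 0.29, limma adjusted p = 0.013), the last lost with slide as a block. Hnrnpa0, an hnRNP of the A/B type, stood at 1.66, 1.60 and 1.75 in WT saline, 2.45, 2.33 and 2.11 in WT E2, 1.71, 1.85 and 1.72 in EAAE saline and 1.76, 1.32 and 0.76 in EAAE E2. Sf3b3, Sf3b4, Hnrnpab and Prpf38a had differences of -1.04, -0.85, -0.81 and -0.80, and the call for Sf3b4 was lost under 12 of 21 alternatives, slide as a block among them. Sf3b4 was at 0.56, 0.71 and 0.58 in WT saline, 1.24, 1.39 and 1.34 in WT E2, 0.53, 0.78 and 1.45 in EAAE saline and 0.57, 0.75 and 1.01 in EAAE E2, with 1 EAAE saline array as high as WT after E2. Hnrnpab was almost level in EAAE, with 6.11, 6.20 and 6.11 under saline and 6.18, 6.22 and 6.21 after E2. Prpf38a had 2.22, 2.15 and 2.35 under saline and 2.09, 2.18 and 2.52 after E2 in EAAE, which overlap. Not every risen gene differed: U2af2 changed by 0.39 in WT and 0.36 in EAAE, and Hnrnpll by 0.37 and 0.35, with differences of -0.03 (SE 0.19) and -0.02 (SE 0.17). Sf3b2 was the member with a higher response in EAAE (0.37, SE 0.12, limma adjusted p = 0.035), from changes of -0.11 in WT and 0.26 in EAAE that did not pass on their own. That call was lost under 14 of 21 alternatives, slide as a block among them. Its levels were 4.15, 4.19 and 4.23 in WT saline, 4.01, 4.13 and 4.13 in WT E2, 4.14, 4.23 and 3.94 in EAAE saline and 4.33, 4.40 and 4.37 in EAAE E2, so the EAAE E2 arrays lay above all the others.

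**Figure D3:**
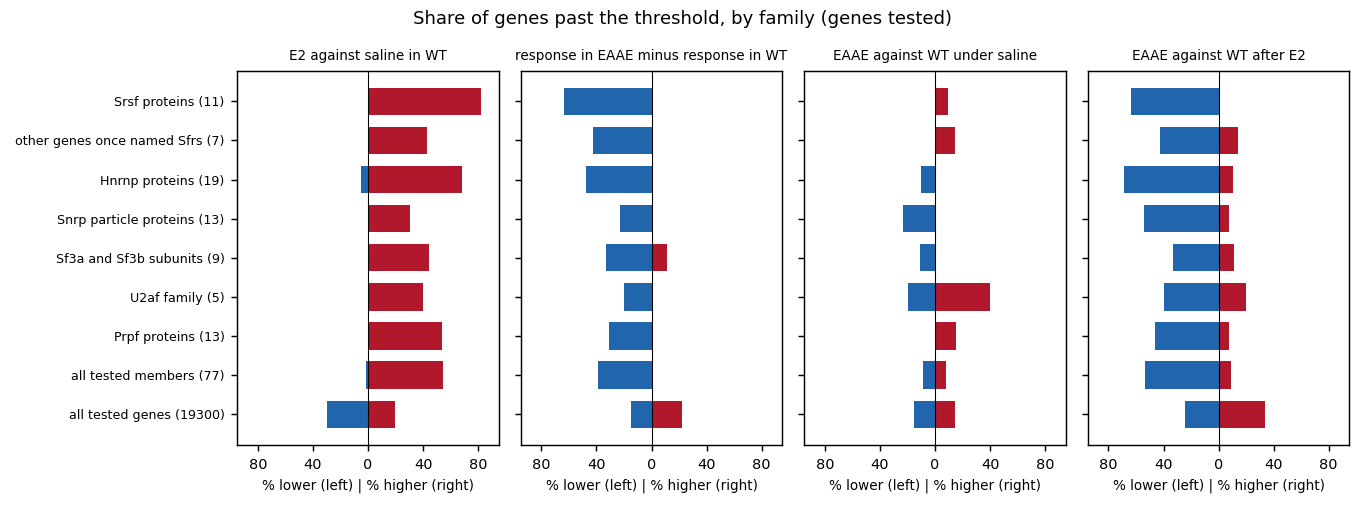
Percent of tested genes past the threshold, higher to the right and lower to the left, for each family, all 77 members and all 19300 tested genes in 4 comparisons. In WT after E2 the Srsf bar reaches 81.8% higher and the Snrp bar 30.8%, against 19.6% of all genes.

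Under saline 6 members were higher and 7 lower in EAAE than in WT, against 14.5% and 15.0% of all tested genes, and the median difference was 0.02. Snrpd3 was lowest relative to WT, with 3.04, 3.14 and 3.55 in WT and 2.23, 2.04 and 2.44 in EAAE, a difference of -1.004 (SE 0.14, limma adjusted p = 0.00055). Hnrnpa1 followed with 3.35, 3.35 and 3.72 in EAAE against 3.99, 4.07 and 4.18 in WT, a difference of -0.61 (SE 0.13, limma adjusted p = 0.0052). These arrays did not overlap between genotypes in either gene, but with the mean of its probes the Hnrnpa1 difference was 0.019. U2af2 was lower by a difference of -0.52 (SE 0.13), with -2.16, -2.004 and -1.68 in WT and -2.43, -2.56 and -2.41 in EAAE. Sf3b5, Hnrnpa3, Snrpc and Snrpb2 had differences of -0.33 to -0.30. Hnrnpa3, a relative of Hnrnpa1, was at 5.52, 5.45 and 5.51 in WT and at 5.15, 5.18 and 5.22 in EAAE. Snrpc, the U1 snRNP protein that helps hold the 5′ splice site, was at 3.01, 2.93 and 3.09 in WT and at 2.59, 2.75 and 2.77 in EAAE. In both the genotypes did not overlap. Snrpb2, of the U2 snRNP, was at 3.97, 3.98 and 4.06 in WT and at 3.85, 3.65 and 3.63 in EAAE. Sf3b5, a small subunit of SF3B, was at 2.46, 2.30 and 2.59 in WT and at 2.10, 2.26 and 2.00 in EAAE, and again all EAAE arrays were below all WT arrays. That order held under saline in 12 of the 77 members and in 4524 of all 19300 tested genes.

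Higher in EAAE under saline was Prpf4b, a kinase of the tri-snRNP, with 1.18, 1.39 and 1.79 against 0.47, 0.68 and 1.02 in WT, a difference of 0.73 (SE 0.19, limma adjusted p = 0.014). Zrsr2 was higher by 0.59, with 0.35, 0.33 and 0.54 in EAAE against -0.11, 0.12 and -0.54 in WT. Its relative Zrsr1 was higher by 0.48, with 2.57, 2.37 and 2.53 against 1.902, 2.13 and 2.00. All 3 of these genes had every EAAE array above every WT array. That order held in 12 of the 77 members and in 23.5% of all tested genes. The Prpf4b call was lost under 5 of 22 alternatives and the Zrsr2 call under 16 of 22. The mean of tested probes was among them for both genes. Across the alternatives the lowest Prpf4b difference was 0.024. Srek1 was at 1.25, 1.23 and 1.59 in EAAE and 0.85, 1.09 and 0.92 in WT, a difference of 0.40. Srsf7 had 2.99, 2.91 and 3.18 in EAAE, a difference of 0.27 from WT. These calls depended on the slides: with slide as a block 3 of the 13 passed (Hnrnpa1, Snrpd3 and Zrsr1), and with position added none did. Of all tested genes, 9.11% were higher and 9.69% lower with slide as a block, and 1.18% and 0.99% with position added. Within slide 1, with 1 array of each saline group, the members' median difference was 0.08, against 0.05 for all genes. Leaving out WT saline replicate 1, WT saline replicate 3 or EAAE saline replicate 3 left 6 members called. The shares of all tested genes in those fits are not given, so that drop cannot be read as particular to the members. Among cell type markers, 6 of 8 epithelial markers were higher and 1 lower (-2.37) in EAAE under saline, and 2 of 8 stromal markers were higher. Lower were 4 of 8 macrophage, 3 of 8 lymphocyte, 2 of 8 endothelial and 1 of 8 smooth muscle markers. The part of these marker shifts in the member differences was not tested.

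After E2, 41 members were lower in EAAE than in WT and 7 higher, against 24.5% and 33.5% of all tested genes, with a median of -0.34 against 0.11. Of the 42 genes that rose in WT, 35 were lower in EAAE after E2 (83.3%), against 82.0% of all 3783 genes that rose in WT. The comparison shares its WT E2 arrays with the WT response. Cell type markers differed as well: 8 of 8 adipocyte markers (median 3.74), 7 of 8 stromal markers (median 1.13) and 3 of 8 endothelial markers were higher in EAAE after E2. Of 8 epithelial markers 5 were higher and 2 lower, and 6 of 8 smooth muscle markers were lower (median -0.67). Their part in the splicing factor differences was not tested. U2af1, Srsf3, Sf3b3, Srsf2, Srsf6 and Hnrnpa0 had the largest differences, -1.68, -1.44, -1.14, -1.11, -1.05 and -1.02, followed by Hnrnpu and Prpf19 with -0.94 and -0.93. With slide and position in the fit, the calls of U2af1, Srsf3, Hnrnpa0 and Prpf19 were lost. Across the alternatives the difference ran from -2.01 to -0.71 for U2af1 and from -1.18 to -0.14 for Prpf19. Srsf6 had 3.49, 3.48 and 3.35 in WT and 2.65, 2.31 and 2.19 in EAAE after E2, with no overlap. All EAAE E2 arrays lay below all WT E2 arrays in 52 of the 77 members, against 5259 of all 19300 tested genes. Prpf19, an E3 ubiquitin ligase of the spliceosome, had 1.26, 1.35 and 1.35 against 0.05, 0.22 and 0.90.

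The 7 higher genes were Zrsr1, Snrpn, Prpf40b, Hnrnpul1, Srek1, Sf3b2 and Hnrnpl, by 0.54 to 0.25. With slide and position in the fit the Hnrnpul1 difference was -0.019, and with the mean of its probes that of Srek1 was -0.032. Zrsr1 was at 1.78, 1.88 and 1.82 in WT and 2.26, 2.42 and 2.43 in EAAE. Snrpn, a neuronal paralog of Snrpb from an imprinted locus where it shares a transcript with Snurf, was at -2.47, -2.37 and -2.05 in WT and -2.01, -1.89 and -1.64 in EAAE. Prpf40b was at 1.10, 1.10 and 1.11 in WT and 1.42, 1.69 and 1.51 in EAAE, and Hnrnpl, a repressor that binds CA-rich RNA, at 1.36, 1.18 and 1.33 against 1.62, 1.43 and 1.58. None of these 4 genes overlapped between genotypes after E2. All EAAE E2 arrays lay above all WT E2 arrays in 9 of the 77 members and in 37.1% of all tested genes. Within slides, the members' median difference was -0.38, -0.28 and -0.36 on slides 1, 2 and 3. With array medians 2 members were higher, against 28.3% of all tested genes. With slide and position in the fit 16 members were lower and 1 higher, against 11.8% and 15.1% of all tested genes.

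Several genes were read by more than 1 probe, and the probes did not always agree. Of 51 genes with several tested probes, all probes rose in WT in 16 and some rose and none fell in 23. In 10 genes no probe passed, in 1 gene only a fall was called, and in Prpf4b probes passed in both directions. With each probe tested on its own, 84 of 156 member probes rose, against 21.1% of all tested probes. The median range of the WT change among probes of a gene was 0.25, and in 12 genes it exceeded 0.5.

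Prpf4b had 4 probes with WT changes of -1.45 (SE 0.34, limma adjusted p = 0.0053), 0.99 (SE 0.11, limma adjusted p = 3.7e-05), 0.32 and 0.19. The probe that fell lies at chr13:34318198-34318257 and the one that rose most at chr13:34317324-34317383 (mm7). For Srsf3, the brighter probe at chr17:27231568-27231627 rose by 1.34, whereas the probe at chr17:27228314-27228373 changed by -0.12 (limma adjusted p = 0.57). In Srsf5 the order was the reverse: the brighter probe at chr12:78913155-78913213 changed by 0.51 and did not pass, and the junction-spanning probe printed above rose by 1.64 (SE 0.20, limma adjusted p = 8.6e-05). Zrsr2 likewise had a brighter probe at 0.13 and a dimmer one at 1.17 (SE 0.12, limma adjusted p = 2.6e-05). A count by gene, which follows the brightest probe, therefore leaves out these rises of Srsf5 and Zrsr2. They were not the only ones. Among other genes not called, 3 of 4 Snrpa probes and 2 of 3 Hnrnpdl probes rose when tested on their own. Hnrnpa2b1, Prpf39, Sf3a1, Sf3b6, Sfswap and Srek1 each had 1 such probe. All 4 Srsf2 probes rose, by 1.10 to 1.62, the printed one the most. In Hnrnpu, Srsf6 and Hnrnpr only 1 of 2 probes rose, and the other changed by 0.17, 0.04 and -0.20.

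**Figure D4:**
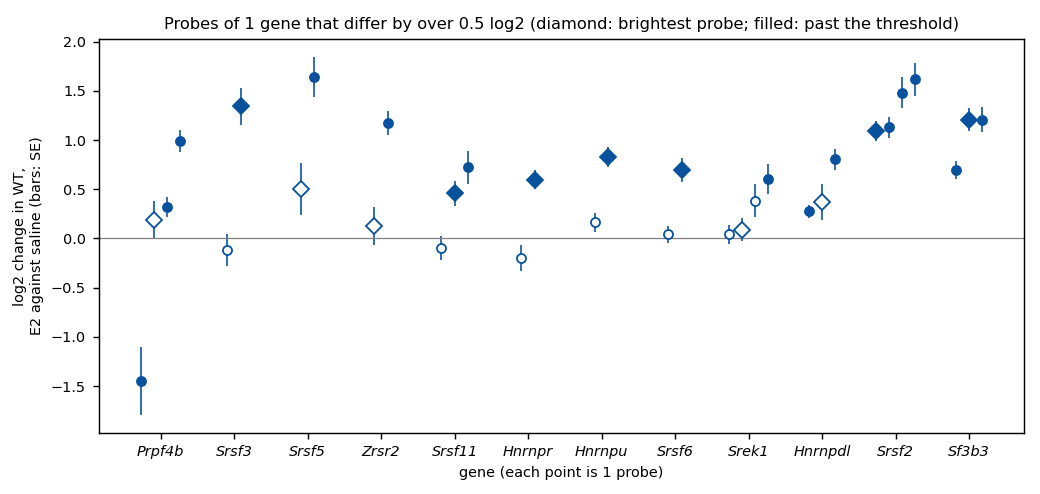
WT change after E2 of each tested probe (log2, bars are SE) in the 12 genes whose probes span more than 0.5, with diamonds for the brightest probe and filled symbols for adjusted p under 0.05. Prpf4b spans -1.45 to 0.99, and in Srsf3, Srsf5 and Zrsr2 one probe passes while the other lies more than 1 lower and does not.

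Promoter windows from RefSeq (GRCm38.p6, 250 bases before to 50 after a start) were found for 69 of the 78 genes, 93 windows in all. Motif searches used 7 sets of letters on both strands, each chosen after the array values had been seen, and no test was made. The E-box CACGTG was in 12.9% of member windows and 7.15% of all 32851 windows, and the ETS letters CCGGAAGT were in 16.1% and 3.89%. The NRF1 site was in 2.15% against 0.971%, and the cAMP response element TGACGTCA in 2.15% against 1.79%. The AP-1 letters TGANTCA were in 3.23% against 7.81%. The full palindromic estrogen response element was in 0.0% of member windows and 0.07% of all, and its half-site AGGTCA, which the full element can contain, was in 8.6% and 16.3%. Of the 42 genes that rose in WT, 36 had windows, 50 in all, and the E-box was in 8, the ETS letters in 7 and the half-site in 5 of these.

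The 3 genes with the largest WT rise were Srsf3, U2af1 and Sf3b3, and the 250 bases before their starts are printed to show what these windows hold, with any match to the 7 motifs in capitals. They read 5′ to 3′ on the gene's strand.
Srsf3, chr17:29032410-29032659, plus strand: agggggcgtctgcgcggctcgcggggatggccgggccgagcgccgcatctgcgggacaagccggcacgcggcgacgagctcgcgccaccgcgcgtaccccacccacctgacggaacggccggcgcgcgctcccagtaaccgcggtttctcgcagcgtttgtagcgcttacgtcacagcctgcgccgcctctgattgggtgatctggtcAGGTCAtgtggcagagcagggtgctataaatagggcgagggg
U2af1, chr17:31658765-31659014, minus strand: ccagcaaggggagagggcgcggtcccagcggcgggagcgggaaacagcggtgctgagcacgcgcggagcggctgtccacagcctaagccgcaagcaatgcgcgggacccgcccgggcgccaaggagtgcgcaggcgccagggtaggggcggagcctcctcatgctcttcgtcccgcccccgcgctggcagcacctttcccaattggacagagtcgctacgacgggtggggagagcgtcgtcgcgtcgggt
Sf3b3, chr8:110846804-110847053, minus strand: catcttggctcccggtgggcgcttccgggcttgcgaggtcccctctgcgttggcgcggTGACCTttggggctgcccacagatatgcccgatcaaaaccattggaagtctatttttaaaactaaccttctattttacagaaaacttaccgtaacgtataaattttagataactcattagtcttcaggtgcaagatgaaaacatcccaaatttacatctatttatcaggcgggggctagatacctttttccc
The capitals in Srsf3 and Sf3b3 are estrogen response element half-sites that begin 42 and 192 bases before the start. The U2af1 window, like the second RefSeq start of that gene, held none of the 7. A match is a description of letters and not of binding.

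Splicing genes outside the name rule, in 9 lists of 130 genes, gave 57 higher and 10 lower of 129 tested in WT after E2 (median 0.21), or 44.2% and 7.75%, against 19.6% and 29.7% of all tested genes. In EAAE 0 of 129 passed with limma, against 1.45% of all tested genes. The exon junction complex, which marks spliced mRNA, had 7 of 8 genes higher, led by its helicase Eif4a3 at 0.99. Among assembly factors of Sm cores, 7 of 13 rose and 2 fell, and Gemin5, which recognises snRNA, rose by 1.10. Other regulators had 14 of 38 higher and 2 lower, with Ptbp1, the polypyrimidine-tract repressor, at 1.13, Rbfox2 at 0.84 and Sf1, the branch-point protein, at 0.66. Proteins of the U1, U4, U5 and U6 particles had 9 of 16 higher and 1 lower, with Usp39 at 0.91 and Snu13 at 0.69. Prp19-associated proteins likewise had 9 of 16 higher and 1 lower, with Bud31 at 0.77, and 5 of 12 spliceosome helicases rose, with Dhx15 at 0.62.

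The lists nearest to the background of 19.6% higher were kinases, Lsm proteins and minor spliceosome proteins, with 11.1%, 30.0% and 28.6%. Of 9 kinases listed for their phosphorylation of SR proteins, 1 rose and 2 fell. Srpk1, the cytoplasmic SR kinase, rose by 0.73 (SE 0.13, limma adjusted p = 0.0012). Clk1 and Clk2, nuclear kinases of the same substrates, changed by -0.53 and -0.49 (limma adjusted p = 0.0029 and 0.00050). Lsm proteins had 3 of 10 higher and 1 lower, the last being Lsm10 at -0.73. Minor spliceosome proteins had 2 of 7 higher and 1 lower, with Zcrb1 at 0.61 and Snrnp25 at -0.61.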

How the data were processed

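Gene expression was measured in 12 uteri on 1-colour arrays. Per the file headers, the authors' scanner files were made with Agilent Feature Extraction 9.5.3.1, which subtracts background and detrends each array; the deposited intensity values carry no scaling between arrays. The deposited value table holds the same intensities. Array number (3 per group) and spot brightness limit the precision.

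Outlier and control spots were left out, each array was scaled to its 75th percentile and log2 was taken. Probes were kept where some group had all its arrays well above background (29017 probes, 19300 genes), and the probe with the highest mean stood for its gene. limma 3.58.1 (R 4.3.3) fitted the 4 groups together, with 2-sided tests and Benjamini-Hochberg adjustment over all genes at a threshold of 0.05; the fit was tested on simulated data. Probe names were updated through RefSeq tables (GRCm38.p6); 1 probe with an ambiguous old name was assigned to Tra2b from the description and position in the file.

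Members and gene lists were chosen with earlier results of these data known, and the motifs after the values had been seen. Array values are given in the main for up to 8 largest rises and falls per comparison, the largest and smallest WT change per family, and genes whose probes disagree; further values are summarised, and 1 member is counted but not reported here. Alternatives covered scaling (array median, quantile), normexp background (offset 50), filters, probe choice, slide, position, replicate block, samples in the fit and each array left out. Replicates are separate mice, per the labels.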

Additional observations from a re-analysis of the deposited data

Results flagged for a closer look

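The genes considered here are those chosen for array values by the rules given above. Tra2b, whose levels are also given, was not chosen by those rules and is not counted. For 13 of the chosen genes the response to E2 differed between EAAE and WT by limma's test of the difference itself. There were 3 mice in each of the 4 groups. The values are the EAAE response minus the WT response on the log2 scale.

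Among SR proteins the differences were Srsf3 -1.46 (limma adjusted p = 0.0018), Srsf2 -1.21 (limma adjusted p = 0.00014), Srsf7 -0.73 (limma adjusted p = 0.0015) and Srsf6 -0.71 (limma adjusted p = 0.0097).
Among hnRNP genes they were Hnrnpa0 -1.11 (limma adjusted p = 0.013), Hnrnpab -0.81 (limma adjusted p = 0.00012) and Hnrnpu -0.76 (limma adjusted p = 0.0021).
Among genes of the SF3B, U2AF, snRNP and PRPF groups they were U2af1 -2.09 (limma adjusted p = 0.007), Sf3b3 -1.04 (limma adjusted p = 0.0009), Sf3b4 -0.85 (limma adjusted p = 0.041), Prpf38a -0.80 (limma adjusted p = 0.005) and Snrpd1 -0.53 (limma adjusted p = 0.045).
With slide as a block the differences of Hnrnpa0, Sf3b4, Snrpd1 and Sf3b2 no longer passed. Of 21 alternatives, 15 ended the call for Snrpd1, 12 that for Sf3b4, 14 that for Sf3b2 and 2 that for Hnrnpa0.
Sf3b2 was the one in which the EAAE response was the higher, with a difference of 0.37 (limma adjusted p = 0.035).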

How the results depend on the processing

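Of 69 calls of members chosen by rule for array values, 29 held under all alternatives, and 20 of the 42 WT rises did. Members higher in WT numbered 42 (33 to 44 with 1 array left out), 21 with slide and position and 84 when probes were counted. The single fall in WT became 0 with array medians, normexp, no filter, the mean of probes, the slide block, the replicate block or only the groups compared, 4 with quantile, 2 by probe and 0 to 2 with 1 array left out. Calls in EAAE rose from 0 to 1, always Snrpd3, with normexp, with probes well above background on all arrays and by probe (0 to 1 with 1 array left out). The 1 higher response in EAAE became 0 with array medians, no filter, the slide block and slide with position, 2 with quantile and 2 by probe (0 to 1 with 1 array left out); the 30 lower responses were 61 by probe. The 13 saline differences became 8 with array medians, 8 with the mean of probes, 3 with the slide block, 0 with position, 6 with only the groups compared and 27 by probe (6 to 15 with 1 array left out). After E2, the 7 higher members became 2 with array medians, 1 with position and 11 by probe (4 to 7 with 1 array left out), and the 41 lower became 16 with position and 81 by probe. The median WT change was 0.478 with array medians; the EAAE median was -0.059 with position; the median after E2 was -0.422 with array medians and -0.467 with position. Signs turned for 3 differences: Hnrnpa1 under saline to 0.019 and Srek1 after E2 to -0.032 with the mean of probes, and Hnrnpul1 after E2 to -0.019 with position. The cause was not tested. Deviations from the group mean had correlations of -0.282 to 0.275 (median 0.031) between same-numbered mice of different groups. Between mice of different number the median was 0.018, so no pairing by number was seen, though groups of 3 could hide one. Between arrays of different groups the median was 0.123 on the same slide and -0.017 on different slides. With the replicate block 40 members rose in WT.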
